A study of Bos taurus with 32 samples.

Results

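The miR-181 family on the miRNA array was made up of bta-miR-181a, bta-miR-181b, bta-miR-181c and bta-miR-181d, 4 of the bovine miRNAs measured (0.595 percent of them, and 80 of the 13440 miRNA spots of each array), and its members were chosen by name. They were followed in adipose tissue of 16 steers, Hereford × Aberdeen Angus yearlings fed either a control diet based on barley or a high fat diet in which flaxseed replaced part of the barley. From each steer both a subcutaneous depot, the backfat, and a visceral depot, the fat around the kidney, were taken at slaughter, which gave 4 groups of 8 arrays: control diet subcutaneous fat, control diet visceral fat, high fat diet subcutaneous fat and high fat diet visceral fat. The depots of a diet came from the same animals, and the whole tissue was used, so fewer cells of a type and less RNA per cell cannot be told apart. Each group had 1 slide for its 8 arrays and each diet was scanned in its own session, so slide and group, and session and diet, cannot be told apart.

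MicroRNAs are short RNAs that pair with messenger RNAs, mostly through the bases near their 5′ end called the seed, and lower the amount or the translation of those messengers. The 4 mature miR-181 miRNAs share a seed and differ in only a few other bases, so they are taken to have largely the same targets, and array probes for one can bind another. Members are transcribed in pairs from clusters: in the RefSeq gene table (assembly ARS-UCD2.0) the 6 bovine genes lay in 3 pairs of nearest miRNA neighbours, MIR181A-1 with MIR181B-1, MIR181A-2 with MIR181B-2, and MIR181C with MIR181D. The family is best known from lymphocyte development and from the endothelium, the lining of blood vessels. In this study bta-miR-181a had a further role, as the miRNA to which the qRT-PCR measurements were referred because its level was taken to be steady, so the stability of its array signal was compared here with that of its relatives and of other miRNAs.

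Detection separated the members. An array intensity is the fluorescence of the labelled RNA bound to the probes of a miRNA, and the scanner software calls a miRNA detected when that intensity stands above its error. bta-miR-181a was detected on all 32 arrays. bta-miR-181b was detected on 31, all except the subcutaneous sample of control steer 405. bta-miR-181d was detected on 1 of 8 control subcutaneous arrays, 2 of 8 control visceral arrays, 8 of 8 high fat subcutaneous arrays and 7 of 8 high fat visceral arrays. More miRNAs of any kind were detected on most high fat arrays. The number per array was 118 to 176 in control subcutaneous and 115 to 166 in control visceral fat. In high fat steers it was 228 to 254 and 169 to 259. bta-miR-181c was detected on 0 of 32 arrays, and 1 of its 640 spots was well above background. Both probes of bta-miR-181c had a mean background-subtracted intensity under 0 in every group, from -1.16 to -0.36, so no level or fold change is given for it. The lowest intensity called detected was between 1.73 and 5.26 on the arrays, which limits what could be seen of this member.

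The unscaled intensities of the members were higher on the high fat arrays, but so was the signal as a whole. For bta-miR-181a the lowest, median and highest intensities were 13.5, 25.8 and 43.3 in control subcutaneous fat, and 25.2, 48.4 and 80.0 in high fat subcutaneous fat. In visceral fat they were 14.4, 16.3 and 40.5 in control steers, and 16.6, 28.2 and 53.9 in high fat steers. All 4 groups overlapped. For bta-miR-181b, over the arrays that detected it, the lowest, median and highest intensities were 5.18, 7.81 and 12.4 in control subcutaneous fat, and 19.2, 26.1 and 38.9 in high fat subcutaneous fat, 2 groups that did not overlap. In visceral fat they were 5.07, 8.55 and 13.1 in control steers, and 10.5, 17.5 and 45.0 in high fat steers, with overlap. The medians of bta-miR-181a were 1.88 times as high in high fat steers in subcutaneous fat and 1.74 times in visceral fat, and those of bta-miR-181b 3.35 and 2.05 times. Over the same groups the median summed intensity of all miRNAs of the array was 5.97 and 4.75 times as high. The synthetic RNA spiked in at labelling did not rise with it, with median intensities of 4115 and 3456 in control subcutaneous and visceral fat and 3352 and 2856 in high fat steers.

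**Figure D1:**
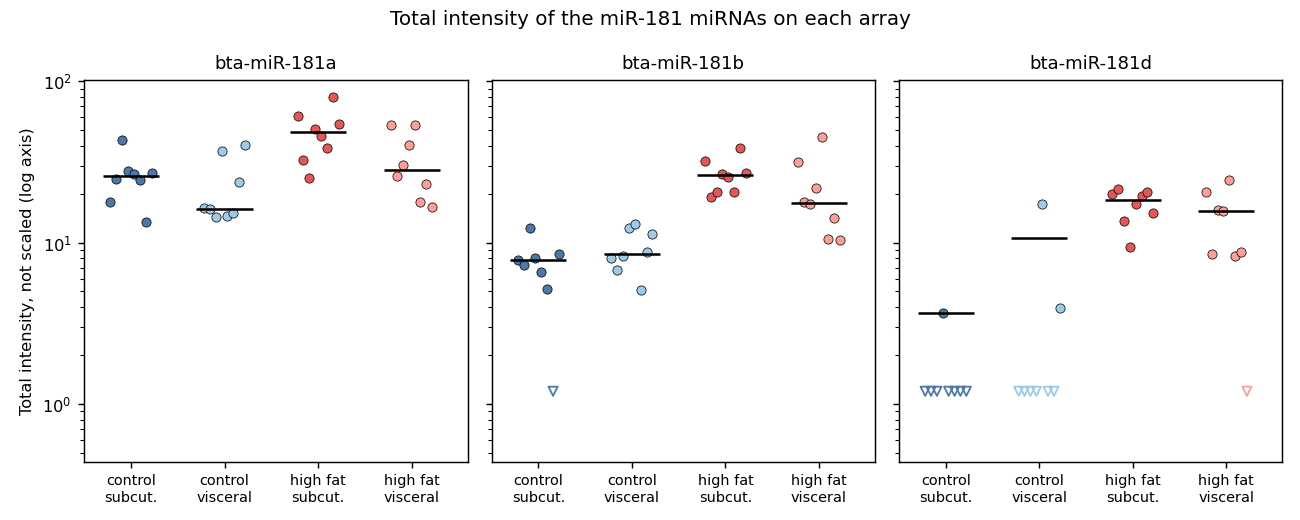
Total intensity before any scaling (log axis) of bta-miR-181a, bta-miR-181b and bta-miR-181d on each of the 32 arrays, by group of 8. Filled points are detected arrays, open triangles at the bottom mark undetected ones at an arbitrary height, and bars are medians of the detected arrays. The points for bta-miR-181a overlap in all 4 groups, while bta-miR-181d is detected on 3 of 16 control arrays and 15 of 16 high fat arrays. Control arrays detected 115 to 176 miRNAs in all and high fat arrays 169 to 259.

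To set the members against the other miRNAs of the same array, each intensity was taken as a share of the 75th percentile among those 91 miRNAs of its array that all 32 arrays detected, and the log2 of that scaled intensity was tested. A common floor of log2 -7.22 stood in for anything lower or not detected. On this scale 2 of the 4 members, bta-miR-181a and bta-miR-181b, were lower in high fat steers in both depots (limma adjusted p under the threshold of 0.05), while bta-miR-181d did not pass and bta-miR-181c, never detected, was not tested. That count has to be read against a background in which 76 percent of the 233 miRNAs tested differed between diets in subcutaneous fat and 71.7 percent in visceral fat, with 34.3 and 29.6 percent lower and 41.6 and 42.1 percent higher. The test of any difference among the 4 groups took the 32 arrays as independent and was not run with the steer as a block. Any difference among the 4 groups passed for bta-miR-181a (largest gap between group means 2.13, limma adjusted p = 1.24e-15) and bta-miR-181b (1.75, adjusted p = 4.83e-07) but not for bta-miR-181d (0.63, adjusted p = 0.474), against 83.3 percent of all miRNAs tested. The direction of both depended on the scaling, as with no scaling, or scaled to synthetic RNAs spiked in at labelling, they were higher.

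The scaled log2 intensity of bta-miR-181a ran from -3.82 through a median of -3.32 to -2.87 in control subcutaneous fat, and from -5.72 through -5.28 to -5.14 in high fat subcutaneous fat. In visceral fat it ran from -3.54 through -3.19 to -2.85 in control steers, and from -5.41 through -5.21 to -4.39 in high fat steers. Every control array lay above every high fat array. The group means ± SD (n = 8 each) were -3.31 ± 0.33, -5.31 ± 0.20, -3.19 ± 0.24 and -5.06 ± 0.38 in the same order. The diet difference was -2.01 (SE 0.15), 4.02-fold lower with the high fat diet, in subcutaneous fat (limma adjusted p = 2.3e-13), and -1.88 (SE 0.15), 3.67-fold lower, in visceral fat (limma adjusted p = 1.42e-12). Leaving out any 1 array kept the differences between -2.08 and -1.94, and between -1.97 and -1.83. The depots were closer. Visceral minus subcutaneous fat was 0.12 in control steers (95 percent interval -0.18 to 0.42, limma adjusted p = 0.743) and 0.25 in high fat steers (-0.05 to 0.55, adjusted p = 0.226), and the depots overlapped on both diets. Between depots 18.9 percent of the 233 miRNAs passed in control steers and 26.2 percent in high fat steers. Ordered by level, control visceral fat stood first, then control subcutaneous, high fat visceral and high fat subcutaneous fat, and of the neighbours in this order the middle pair did not overlap while the others did.

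On the same scale bta-miR-181b had a smaller diet difference in subcutaneous fat and differed between depots in control steers. Its scaled log2 intensity ran from the floor of -7.22 on the undetected array of steer 405 through a median of -5.27 to -4.65 in control subcutaneous fat, and from -6.36 through -6.10 to -6.00 in high fat subcutaneous fat. In visceral fat it ran from -4.81 through -4.39 to -3.55 in control steers and from -6.03 through -5.86 to -5.14 in high fat steers. The diets did not overlap in visceral fat, nor in subcutaneous fat once the array at the floor was set aside. The diet difference was -0.77 (SE 0.24), 1.70-fold lower, in subcutaneous fat (limma adjusted p = 0.00433) and -1.34 (SE 0.24), 2.53-fold lower, in visceral fat (limma adjusted p = 7.34e-06). The undetected array decided the size of the first value: without it the subcutaneous difference was -1.03, and with that array at its own detection limit it was -1.04.

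On the control diet bta-miR-181b stood higher in the visceral depot by 0.98 (SE 0.24, limma adjusted p = 0.00394), in a contrast where 6.87 percent of the 233 miRNAs were higher in visceral fat. With the undetected array at its own limit this became at least 0.71, or at least 1.63-fold. Within steers the visceral sample was the higher in all 7 control steers with both samples detected, by 0.32 to 1.86 with a median of 0.67, and with the steer as a block the limma adjusted p was 0.00264. On the high fat diet the visceral sample was higher in 8 of 8 steers, by 0.09 to 0.96, while the group difference was 0.41 (95 percent interval -0.07 to 0.89, limma adjusted p = 0.208). The control depot difference did not pass with no scaling, spike-ins, the percentile taken over every miRNA of the array, the mean log2 of single spots, normexp (a background correction by a model of signal and noise, with an offset added), the deposited values or the two-sample test of the methods. No interaction of diet and depot passed for bta-miR-181a (0.13, limma adjusted p = 0.891), bta-miR-181b (-0.57, adjusted p = 0.552) or bta-miR-181d (-0.16, adjusted p = 0.958), where 1.72 percent of all miRNAs did.

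**Figure D2:**
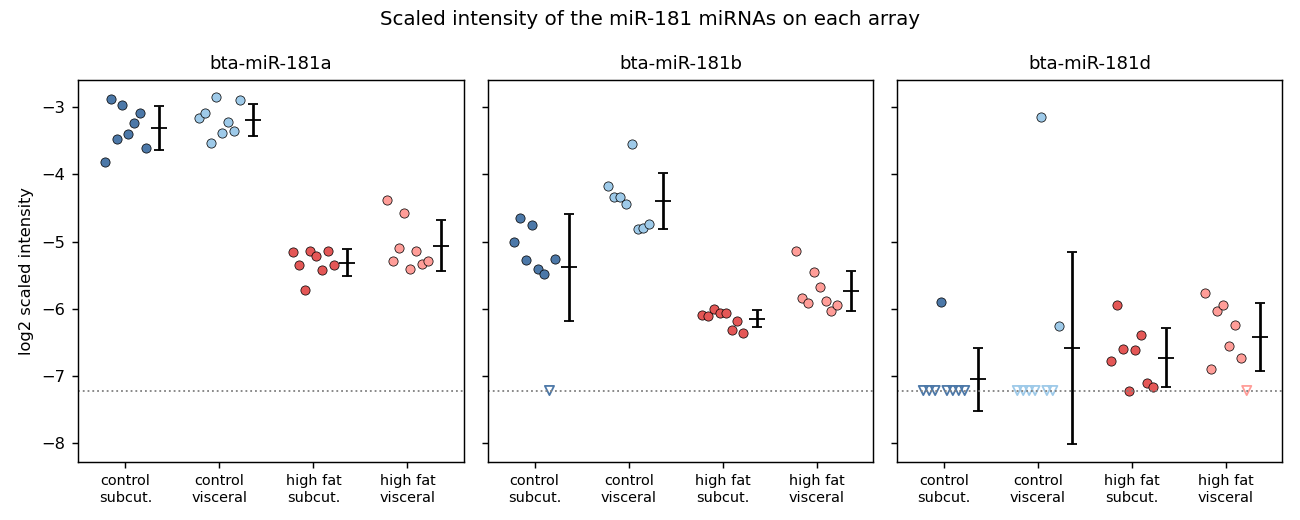
log2 scaled intensity of bta-miR-181a, bta-miR-181b and bta-miR-181d on each array by group, with the mean and SD of 8 arrays beside the points. Open triangles are undetected arrays set to the floor of -7.22, drawn as a dotted line. The control arrays of bta-miR-181a all lie at -3.82 or above and the high fat arrays all at -4.39 or below, and most control arrays of bta-miR-181d sit at the floor.

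bta-miR-181d could not be ranked between diets on the scaled values. Its unscaled intensities ran from 9.39 through a median of 18.5 to 21.4 in high fat subcutaneous fat, and from 8.27 through 15.6 to 24.4 on the 7 high fat visceral arrays that detected it. On the control diet it was detected at 3.65 in the subcutaneous sample of steer 211, and at 17.3 and 3.94 in the visceral samples of steers 307 and 410. So 15 of 16 high fat arrays but 3 of 16 control arrays had a call. After scaling, however, the detection limit of the control arrays lay between -7.34 and -4.91, and the high fat values of bta-miR-181d lay between the floor of -7.22 and -5.77, so a control array at the same scaled level would often not have been called. The fitted diet differences were 0.33 in subcutaneous fat (95 percent interval -0.49 to 1.14, limma adjusted p = 0.469) and 0.17 in the visceral depot (-0.65 to 0.99, adjusted p = 0.756). The visceral array of control steer 307, at a scaled log2 intensity of -3.15, decided the second: without it the difference was 0.66 (limma adjusted p = 0.0111). bta-miR-181d entered the fit only through its detection on high fat arrays, and most of its control values were the floor. These p-values are therefore no test of a diet difference. The fits put undetected arrays at the floor of -7.22, below every detection limit of the control visceral arrays (-7.06 to -4.91). With undetected arrays at their own limits and no floor, the differences were -0.40 in subcutaneous and -0.81 in visceral fat. So the sign depended on where undetected arrays were put.

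The direction of the diet difference turned on how arrays were put on a common scale. With no scaling bta-miR-181a was higher in high fat steers by 0.91 in subcutaneous fat (limma adjusted p = 0.00466) and by 0.54 in the visceral depot (adjusted p = 0.0885), and scaled to the labelling spike-ins by 1.16 (adjusted p = 0.00037) and 0.997 (adjusted p = 0.00214). With the deposited values, which the authors had normalized to the 75th percentile, it was lower by more than with the main scaling, at -3.40 and -2.95. bta-miR-181b turned in the same way, to 1.93 and 1.08 with no scaling and 2.14 and 1.54 with spike-ins. The median of the 91 miRNAs detected on all arrays moved by -0.91 in subcutaneous and -0.80 in visceral fat with the main scaling, and by 2.01 and 1.63 with none. Relative to that median bta-miR-181a was at -1.10 and -1.08. No scaling, spike-ins, the median, the percentile over every miRNA and the deposited values leave that difference as it is by arithmetic, since each shifts all miRNAs of an array by the same amount. The methods that can change it gave -1.15 and -0.94 with spot intensities, -0.89 and -0.57 with normexp and -1.65 and -1.45 with quantile normalization. It was the 25th lowest of the 91 differences in subcutaneous fat and the 29th lowest in visceral fat. For bta-miR-181b the place in subcutaneous fat depended on the processing: it was 0.14 from the median with the main scaling and -0.12 to 0.15 with the other scalings, but -0.90 with spot intensities and -0.87 with normexp. In visceral fat it was at -0.54 and between -0.77 and -0.52 under all of these. Between depots bta-miR-181a ranked 52nd and 56th from the lowest, near the middle.

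**Figure D3:**
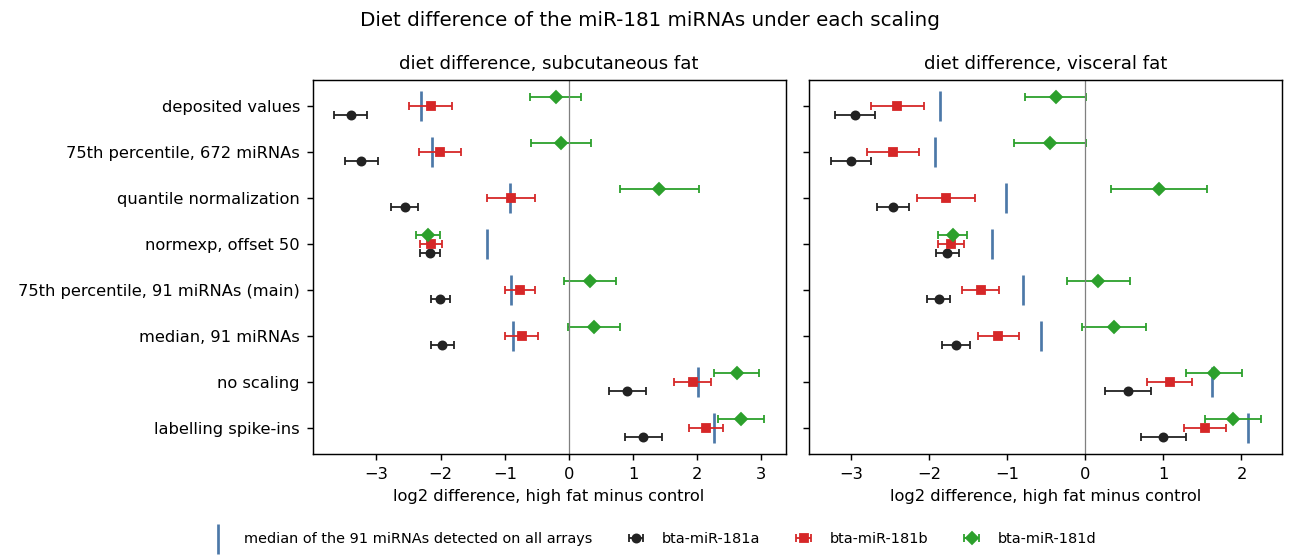
Diet difference (log2, high fat minus control, with SE) of 3 miR-181 miRNAs in subcutaneous and visceral fat under 8 ways of scaling or background correction, with the median of the 91 miRNAs detected on all arrays as a blue bar. bta-miR-181a is below the blue bar in every row, by 1.10 in subcutaneous fat with the main scaling, while its sign turns with no scaling and with the labelling spike-ins.

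The ratio of 2 members on the same array needs no scaling, and it compares their change without saying which of them changed. The log2 ratio of the intensities of bta-miR-181a over bta-miR-181b was 1.78 ± 0.33 (SD, n = 7) in control subcutaneous fat and 0.84 ± 0.24 (n = 8) in high fat subcutaneous fat. The control values lay between 1.19 and 2.24 and the high fat values between 0.28 and 1.04, with no overlap. The difference of -0.95 (SE 0.15), a 1.93-fold smaller ratio with the high fat diet, had the smallest p this design allows (two-sided exact permutation test, p = 0.000155, adjusted over 6 tests p = 0.000932). In visceral fat the ratio was 1.21 ± 0.54 in control steers and 0.67 ± 0.20 in high fat steers. The groups overlapped, and the difference of -0.54 (SE 0.20) did not pass after adjustment (exact permutation p = 0.0201, adjusted p = 0.0519). It did pass with steer 209 left out of the control visceral group, at -0.60 (exact permutation, adjusted p = 0.0457), or steer 307, at -0.69 (exact permutation, adjusted p = 0.0014). The array of steer 307 had a ratio of 0.17, the lowest of its group, where the other 7 ran from 0.80 to 1.84.

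Between depots the ratio of bta-miR-181a over bta-miR-181b was lower in visceral fat by 0.57 in control steers (exact permutation p = 0.0259, adjusted p = 0.0519) and by 0.16 in high fat steers (exact permutation p = 0.168, adjusted p = 0.251). Neither passed after adjustment, nor with the steer as a block, where the control difference over 7 steers was -0.60 (exact sign-flip permutation, adjusted p = 0.188). The control difference did pass without the subcutaneous array of steer 108, at -0.67 (exact permutation, adjusted p = 0.03), or the visceral array of steer 410, at -0.66 (exact permutation, adjusted p = 0.035), and the high fat difference without the subcutaneous array of steer 202, at -0.24 (exact permutation, adjusted p = 0.0145). The ratio of bta-miR-181a over bta-miR-181d could be compared only between depots in high fat steers, where it was 1.46 ± 0.62 (n = 8) in subcutaneous and 1.28 ± 0.23 (n = 7) in visceral fat (exact permutation, adjusted p = 0.563). The ratio of bta-miR-181b over bta-miR-181d was 0.62 ± 0.51 and 0.60 ± 0.32 in the same samples (exact permutation, adjusted p = 0.922).

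**Figure D4:**
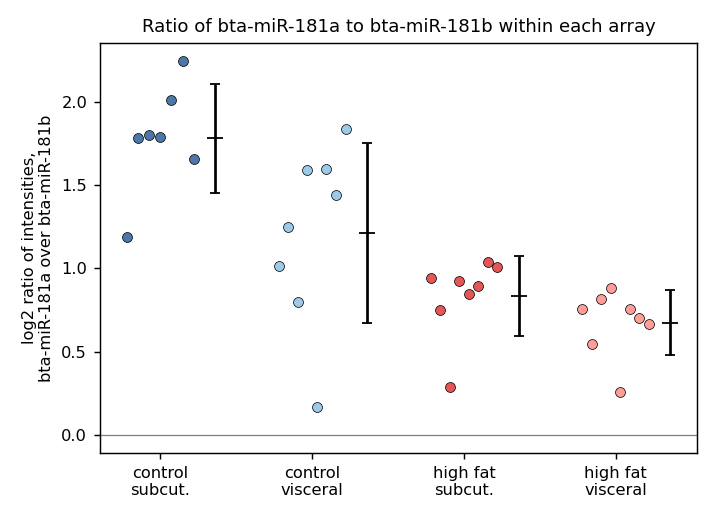
log2 ratio of the intensity of bta-miR-181a over bta-miR-181b within each array, by group, with mean and SD; the control subcutaneous group has 7 arrays and the others 8. In subcutaneous fat the control arrays lie from 1.19 to 2.24 and the high fat arrays from 0.28 to 1.04, without overlap.

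Each member had 2 probes of 10 spots, and the single probes were compared without scaling. Both probes of bta-miR-181a were higher in high fat steers, the brighter one by 0.90 in subcutaneous and 0.52 in visceral fat and the dimmer one by 0.78 and 0.45 (log2). For bta-miR-181b the brighter probe was higher by 1.87 and 1.04, whereas the dimmer one had 0 of 80 spots well above background in each of 3 groups and 7 of 80 in high fat visceral fat. Both probes of bta-miR-181d were higher in high fat steers, by 2.18 and 1.74 for the dimmer and 2.07 and 1.63 for the brighter. The ratio of bta-miR-181a over bta-miR-181b taken from the brighter probe of each differed between diets by -0.92 in subcutaneous fat (exact permutation, adjusted p = 0.000932) and by -0.52 in the visceral depot (adjusted p = 0.0298). With all spots averaged, the dim probe of bta-miR-181b included, the subcutaneous difference was -0.29 and did not pass (exact permutation, adjusted p = 0.181). It was also lost with the normexp correction, at -0.03 (exact permutation, adjusted p = 0.45), whose offset of 50 was larger than most intensities of these miRNAs. The error that the scanner software gave a detected intensity had a median of 10.6 percent for bta-miR-181a, 14.99 percent for bta-miR-181b and 14.7 percent for bta-miR-181d.

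Stability was described by M, the mean over all other miRNAs of the SD of the log2 ratio to each, which needs no scaling and is smaller for a steadier miRNA. Over the 32 arrays bta-miR-181a had an M of 1.13, the 21st smallest of the 91 miRNAs, whose M ran from 0.98 to 2.62 with a median of 1.23. The smallest were those of bta-let-7f (0.98), bta-miR-98 (0.99) and bta-miR-30f (1.01). The SD of its scaled log2 intensity over all arrays was 1.03, the 51st smallest, against a median of 0.99, and its SD pooled within groups was 0.29, the 12th smallest, against a median of 0.43. Without scaling its SD was 0.70, the 21st smallest, with a median of 1.27, and its SD within groups 0.58, the 30th smallest. Under 9 ways of processing, the main one included, its rank by the SD over all arrays ran from 20 to 69 and its rank by the SD within groups from 8 to 49, the last with normexp, where the SD of 0.30 was above the median of 0.29. Over the high fat arrays alone its SD within groups on the main scale was 0.30, the 80th smallest of 159.

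Over the 31 arrays on which both were detected, bta-miR-181b had the smaller M, 1.04 and 10th of 92, against 1.11 and 22nd for bta-miR-181a. Its SD of scaled log2 intensity over those arrays was 0.74 and that of bta-miR-181a 1.03. Within groups they were alike, at 0.31 and 0.30, and without scaling bta-miR-181b varied more, at 0.88 against 0.69. The array left out was the one on which bta-miR-181b was not detected. With that array at the floor, the SD in control subcutaneous fat was 0.80 for bta-miR-181b, against 0.33 for bta-miR-181a. The order by M turned between the diets. Over 15 control arrays bta-miR-181a was 9th of 96 by M and bta-miR-181b 43rd. Over 15 high fat arrays, among 166 miRNAs, bta-miR-181b was 47th with an M of 0.51, bta-miR-181a 55th with 0.52 and bta-miR-181d 113th with 0.66. These are descriptions of the same arrays, and no test of one M against another was made.

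Of 25 miRNAs listed as candidate references, 17 were detected on all 32 arrays, with M from 0.98 (bta-let-7f) to 2.11 (bta-miR-30b-5p). A smaller M than that of bta-miR-181a was found for 6: bta-let-7f, bta-miR-25 (1.03), bta-let-7a (1.04), bta-miR-151 (1.04), bta-let-7i (1.06) and bta-miR-361 (1.10). A smaller SD of the scaled intensity was found for 14, and a smaller SD of the unscaled intensity for 2, bta-miR-320 (0.53) and bta-miR-423-5p (0.56).

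**Figure D5:**
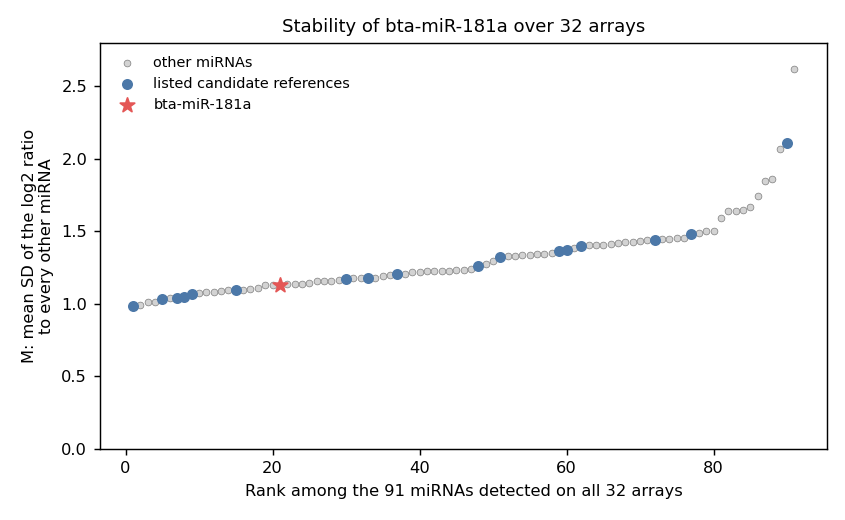
M, the mean SD of the log2 ratio to every other miRNA, against its rank for the 91 miRNAs detected on all 32 arrays; a smaller M is a steadier miRNA. bta-miR-181a (star) is at rank 21 with an M of 1.13, and 6 of the 17 listed candidate references (blue) lie below it.

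The nearest pattern to bta-miR-181a was not that of a family member. Over 32 arrays the SD of its log2 ratio was smallest with bta-miR-92 (0.30), bta-let-7d (0.30) and bta-let-7a (0.32), where the median over all others was 0.97. On the 31 arrays that detected it, bta-miR-181b was 8th, with an SD of 0.54. The patterns nearest to bta-miR-181b were those of bta-miR-99b (0.39), bta-let-7e (0.40) and bta-miR-2411* (0.42), and bta-miR-181a was 9th. All pairs share arrays and probe chemistry, and the likeness is given as a description.

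The choice of reference changed the array differences of the 12 miRNAs that were measured by qRT-PCR, among which bta-miR-92 and bta-miR-142 of the array were taken for the miR-92a and miR-142-5p of that assay. The authors picked these 12 from these same arrays for differing among the 4 groups. How many of the 12 pass here is therefore no test of them, and the counts only describe the effect of the reference. Calls here and in the counts that follow are at limma adjusted p under 0.05. In subcutaneous fat, scaled to the 75th percentile, 6 of the 12 were higher and 3 lower in high fat steers (41.6 and 34.3 percent of all). Scaled to bta-miR-181a, 9 were higher and the other 3 did not pass, where 75.9 percent of the 232 other miRNAs tested were higher and 7.33 percent lower. Scaled to bta-miR-181b, which left 31 arrays, 6 were higher and 3 lower, against 62.1 and 16.4 percent. On those 31 arrays the counts against the 75th percentile and bta-miR-181a were the same as on 32. Among the miRNAs higher against each reference, bta-miR-142, bta-miR-106 and bta-miR-19a lay at the floor on every control array. They rose above the floor only on high fat arrays and so entered the fit through those arrays alone. The sizes and p-values of their diet differences therefore depend on the floor, and their calls are no test of a diet difference.

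In subcutaneous fat 6 of the 12 had another call against bta-miR-181a than against the 75th percentile. By arithmetic, scaling to bta-miR-181a moves every diet difference by that of bta-miR-181a itself (-2.01) with its sign turned. The shifts below therefore restate that 1 difference and are not separate results for each miRNA. The 3 that were lower against the percentile and did not pass against bta-miR-181a were bta-miR-92, at -1.73 (limma adjusted p = 4.33e-11) and 0.28 (adjusted p = 0.11), bta-miR-92b, at -2.53 (adjusted p = 2.13e-09) and -0.53 (adjusted p = 0.119), and bta-miR-2368*, at -2.35 (adjusted p = 1.37e-05) and -0.34 (adjusted p = 0.469). The 3 that passed as higher only against bta-miR-181a were bta-miR-296, at -0.87 (limma adjusted p = 0.0548) and 1.14 (adjusted p = 0.0142), bta-miR-196a, at -0.78 (adjusted p = 0.0966) and 1.23 (adjusted p = 0.0183), and bta-miR-2454, at -0.61 (adjusted p = 0.231) and 1.39 (adjusted p = 0.0111). Against bta-miR-181b the first 3 were lower again, at -0.62, -1.41 and -1.16, and the last 3 did not pass.

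In visceral fat 6 of the 12 were higher and 4 lower against the 75th percentile (42.1 and 29.6 percent of all). The counts were 8 and 1 against bta-miR-181a (75.9 and 7.33 percent), and 7 and 2 against bta-miR-181b (70.7 and 13.8 percent). Between depots in control steers 1 was higher and 2 lower in visceral fat against the 75th percentile (6.87 and 12 percent of all). On the 31 arrays without the subcutaneous array of steer 405 the counts were 2 and 2. Against bta-miR-181a they were 1 and 2 on either set of arrays (3.88 and 11.6 percent of all on the 32), and against bta-miR-181b, on the 31, they were 1 and 7, where 1.29 percent of all miRNAs tested were higher and 64.7 percent lower. Of these 7, bta-miR-142, bta-miR-106 and bta-miR-19a lay at the floor on every control array, so their value of -0.72 is that of the reference alone with its sign turned. On the high fat diet the counts were 1 and 3 against the 75th percentile (11.6 and 14.6 percent of all), 1 and 3 against bta-miR-181a (1.72 and 18.1 percent) and 1 and 4 against bta-miR-181b (1.29 and 25.4 percent).

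Markers of other cell types were summed on the same scale beside these results. The 4 vascular miRNAs (bta-miR-126, bta-miR-126*, bta-miR-221 and bta-miR-222) were all detected on some arrays, and 2 of the 4 were higher in high fat steers in each depot, against 41.6 and 42.1 percent of all miRNAs tested. Their summed scaled intensity was 0.61 to 1.52 in control subcutaneous, 0.86 to 2.42 in control visceral, 3.64 to 4.86 in high fat subcutaneous and 5.11 to 8.25 in high fat visceral fat. The 6 lymphoid and myeloid miRNAs, of which bta-miR-146a was never detected, summed to 0.16 to 0.46, 0.17 to 0.40, 0.23 to 1.01 and 0.21 to 0.34 in the same order. All 10 miRNAs on the adipocyte list were detected on some arrays and 5 on all of them. In each depot 6 of the 9 tested were higher in high fat steers, against 41.6 and 42.1 percent of all. In subcutaneous fat 1 of the 9 was lower and in visceral fat 0, against 34.3 and 29.6 percent of all. The 10 summed to 2.74 to 5.14, 4.16 to 7.83, 3.76 to 4.85 and 4.91 to 9.34 in that order. The 3 red blood cell miRNAs summed to 0.11 to 0.20, 0.19 to 0.37, 0.07 to 0.13 and 0.07 to 0.13, and the 4 skeletal muscle miRNAs stayed at 0.23 or less. Of the 2 red blood cell miRNAs tested, 1 was higher and 1 lower in high fat steers in each depot. bta-miR-122, the marker of liver, was at 0 in subcutaneous fat and reached 0.28 and 0.43 in visceral fat of control and high fat steers. The median vascular, adipocyte, skeletal muscle, and lymphoid and myeloid sums were higher in high fat steers in both depots. For the lymphoid and myeloid list the medians were close, 0.27 and 0.29 in control and high fat subcutaneous fat and 0.24 and 0.25 in visceral fat. The red blood cell sum was lower, as was the scaled level of bta-miR-181a. The part of any of these cell types in the miR-181 values was not tested.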

How the data were processed

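Total RNA of 32 fat samples was labelled with Cy3 and hybridized to a custom Agilent array of 672 bovine miRNAs (20 spots each). The authors extracted each scan with Feature Extraction 10.7.3.1, and the deposited intensity of a miRNA is background subtracted, summed over its probes and unscaled, and reads 0.1 where the miRNA was undetected. A further deposited table, from GeneSpring, holds log2 values after 75th percentile normalization and lists features by number. All 244 features with a value above 0 were matched to a miRNA by value (largest difference 2.09e-06). The members and lists were chosen with earlier results of these data known.

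Samples were grouped by the diet and depot in their labels. Each intensity was put over its array's 75th percentile among 91 miRNAs that all 32 arrays detected, floored at 0.00671 and taken to log2. Of 240 miRNAs detected on at least 8 arrays, 7 never rose above the floor, and 233 entered 1 fit of the 4 groups with limma 3.58.1 in R 4.3.3 (two-sided, Benjamini-Hochberg adjusted p under 0.05). The limma script was tested on simulated data. The named miRNAs are the 4 members, the 3 nearest in pattern to a member, the 3 with the smallest M, the listed candidate references, and those of the 12 qRT-PCR miRNAs whose call in subcutaneous fat changed with the reference. The 3 qRT-PCR miRNAs at the floor and the cell type markers named beside their sums fall outside this rule, and were named after their values were seen. Ratios of members were planned for pairs detected on all 32 arrays. There was none, so, as chosen after the detection calls were seen, they were taken on arrays where both were detected and compared by two-sided exact permutation tests (scipy 1.17.1). A steer gave both depots, which pairs the samples within a diet. The correlation of the paired samples' deviations over the 91 miRNAs had a median of -0.27 in control steers and 0.27 in high fat steers. The number of arrays and the detection limit of each limit the precision. The alternatives were other scalings, floors, filters and tests, spot intensities, normexp, blocks and leaving out each array. The t-test with Benjamini-Hochberg adjustment, own detection limits and the brighter probe in ratios, subsets of arrays in which a member was detected and scaling to bta-miR-181a or bta-miR-181b were added after seeing the data.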

Additional observations from a re-analysis of the deposited data

Results flagged for a closer look

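In 1 of 14 groups of arrays examined, a single array stood far from the rest. The log2 ratio of bta-miR-181a over bta-miR-181b in the subcutaneous fat of high fat steer 202 was 0.2841, while the median of its 8 arrays was 0.91, and the gap to the nearest array was 0.618 of the range of the group. Chance marks about 1 group in 20 in this way. Without this array the depot difference of the ratio on the high fat diet was -0.24 and passed (exact permutation, adjusted p = 0.0145).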

How the results depend on the processing

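Values here are log2 differences, high fat minus control diet or visceral minus subcutaneous fat, with adjusted p-values from limma unless an exact permutation test or the two-sample test of the methods is named. For bta-miR-181a and bta-miR-181b the comparison over all 4 groups passed under every alternative run, and so did the diet differences except that bta-miR-181a in visceral fat missed with no scaling (limma adjusted p = 0.0885) and bta-miR-181b in subcutaneous fat missed under the methods' test with Bonferroni correction (-0.77). Their sign turned with no scaling (bta-miR-181a 0.91 and 0.54, bta-miR-181b 1.93 and 1.08 in subcutaneous and visceral fat) and with spike-ins (1.16 and 0.997, 2.14 and 1.54). With no scaling the depot differences became -0.26 and -0.62 for bta-miR-181a on control and high fat diets, 0.39 and -0.45 for bta-miR-181b and -0.61 (high fat) for bta-miR-181d, and the interaction of bta-miR-181a -0.36. With spike-ins they became -0.10 and -0.27, 0.50 and -0.10, -0.39, and -0.16. The control depot difference of bta-miR-181b missed with the percentile over every miRNA (0.88), spots (0.47), normexp (0.25), deposited values (0.63), no scaling and spike-ins, and by the methods' test, whether Benjamini-Hochberg or Bonferroni adjusted (0.98). In high fat steers its depot difference passed with spots (0.76), normexp (0.68) and the Benjamini-Hochberg adjusted test of the methods (0.41), and with normexp so did bta-miR-181a (0.61) and bta-miR-181d (0.74). Deposited values turned the control depot difference of bta-miR-181a (-0.18). The interaction of bta-miR-181b turned with spots (0.29) and normexp (0.43), and that of bta-miR-181d too (0.088 and 0.50), with none past the threshold.

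For bta-miR-181d the diet differences in subcutaneous and visceral fat were 2.61 and 1.65 with no scaling, 2.68 and 1.89 with spike-ins, 1.41 in subcutaneous fat with quantile normalization, all past the threshold. It met the filter of at least 8 arrays only through the high fat arrays. In these settings most control arrays held a stand-in for an undetected value, so the sizes and p-values depend on that stand-in. The differences were -0.78 and -0.69 with spots and -2.20 and -1.70 with normexp, also past the threshold. They were -0.13 and -0.45 with the percentile over every miRNA and -0.21 and -0.38 with deposited values, which missed it. Its largest gap between groups passed with no scaling (2.61), spike-ins (2.68), spots (1.36) and normexp (2.44).

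The diet difference in the ratio of bta-miR-181a over bta-miR-181b missed in subcutaneous fat with spots (-0.29) and normexp (-0.027). In visceral fat it passed with the brighter probes (-0.52), and the control depot difference passed with undetected arrays at their limit (-0.59). Both members were detected on every visceral array, so that limit left the visceral diet difference (-0.54) and its unadjusted p unchanged. The adjusted p of the visceral diet difference fell to 0.0401 (exact permutation) only because p-values of other ratio tests changed. The ratio of bta-miR-181b over bta-miR-181d turned with spots (0.090), with undetected arrays at their limit (0.15) and with the steer as a replicate block (0.0043), a block that changed no other direction and no call. The rank of bta-miR-181a by M, 21 of 91, became 12 by the SD within groups, 51 by the SD over all arrays, 7 over control arrays and 34 over subcutaneous arrays, among the same 91 miRNAs. bta-miR-181c had 1 array with a spot well above background, and bta-miR-181d a deposited value above 0 on 8 arrays. Leaving out 1 array at a time changed no call on the scaled level of bta-miR-181a or bta-miR-181b. For bta-miR-181d, with undetected arrays at the floor, it gave 0.0745 to 0.66 for the visceral diet difference and -0.03 to 0.63 for the control depot difference. It also gave -0.32 to 0.33 for the interaction and 0.54 to 0.80 for the largest gap. The array of control steer 307 gave the calls in the visceral diet difference and the largest gap (0.66 each). For the ratio of bta-miR-181a over bta-miR-181b it gave -0.69 to -0.45 for diet in visceral fat, passing without control steer 209 or 307, -0.67 to -0.42 for depot in control steers, passing without subcutaneous 108 or visceral 410, and -0.24 to -0.10 in high fat steers, passing without subcutaneous 202. The ratio of bta-miR-181b over bta-miR-181d lay between -0.13 and 0.10, and the rank of bta-miR-181a by M between 19 and 25.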
